A study of Nicotiana tabacum with 20 samples.

Results

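The features described here are leaf transcripts of *Nicotiana tabacum* (tobacco) whose read level set hairpin line 1 in its T1 generation (HP1_T1) apart from every other group of the series. They form a high set of 23 features and a low set of 16 features, 39 of the 24069 UniGene sequences counted. Members were chosen on total gene reads divided by a size factor per library, called scaled reads here. The group mean of scaled reads plus 1 is called X. A feature entered the high set when its X in HP1_T1 was at least 20 and at least 2 times the X of each of the other 4 groups. It entered the low set when X was at least 20 in each of the other 4 groups and at least 2 times the X of HP1_T1 in each. The levels of HP1_T1 beside the other groups therefore chose the members, and they are given as a description without a test.

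HP1_T1 plants were regenerated after transformation and carried a 35S-driven hairpin of a fragment of the Tnt1 reverse transcriptase, hygromycin resistance and a GUS reporter. HP1_T2 plants were the selfed progeny of HP1_T1 and carried the same transgene. HP8_T1 plants were regenerants of a second line (line 8) with the same construct. C plants were regenerants with the empty vector, which had the 35S promoter, the intron, the OCS terminator and hygromycin resistance, and whose label names no GUS reporter and no generation. WT plants were untransformed. Plants had an age of 45 days. The growth protocol gives in vitro culture on MS20 medium with antibiotic, a 14 h photoperiod and 24 °C. Each group had 4 libraries. A hairpin group is 1 line, and the labels do not say whether replicate libraries stand for different plants, so p-values reflect only how far these libraries spread, which may be technical.

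Tnt1 is a long terminal repeat retrotransposon of tobacco, which moves by copying its RNA into DNA with its own reverse transcriptase. A hairpin RNA is cut by plant Dicer-like enzymes into small RNAs that direct silencing of matching sequences. Regeneration through tissue culture is itself known to alter methylation and gene expression in plants, and a first generation of transformants can segregate for transgene copies when selfed.

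Total gene reads ranged from 1958952 to 3638494 per library, but a single feature took most of them. Outside it, HP1_T1 libraries had 406165 to 629063 reads, HP1_T2 libraries 418585 to 495156, HP8_T1 libraries 458024 to 647426, C libraries 199341 to 293708 and WT libraries 373621 to 588042. Low levels were thus measured least finely in C. The files do not pair UniGene identifiers with gene names, so the leaf origin, Tnt1, the transgene and the functions of the members could not be checked against markers, and members other than 4 are named by their length. In bulk tissue, fewer cells of a type and less RNA per cell cannot be told apart.

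The high set was led by 2 features that were nearly absent from C and WT, followed by many that stood only a little past the threshold. The ratio of X in HP1_T1 to the highest other group had a median of 2.36 and ranged from 2.01 to 9.43. It was at least 3 in 4 members and at least 5 in 2. Median X over the 23 members was 33.01 in HP1_T1, 9.004 in HP1_T2, 10.47 in HP8_T1, 7.17 in C and 9.02 in WT. In 22 of the 23 members all 4 HP1_T1 libraries lay above the other 16, against 3.41% of the 7126 features tested; this is the contrast of the rule and adds nothing to it. The exception was the 520-base member, the one nearest the threshold.

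**Figure D1:**
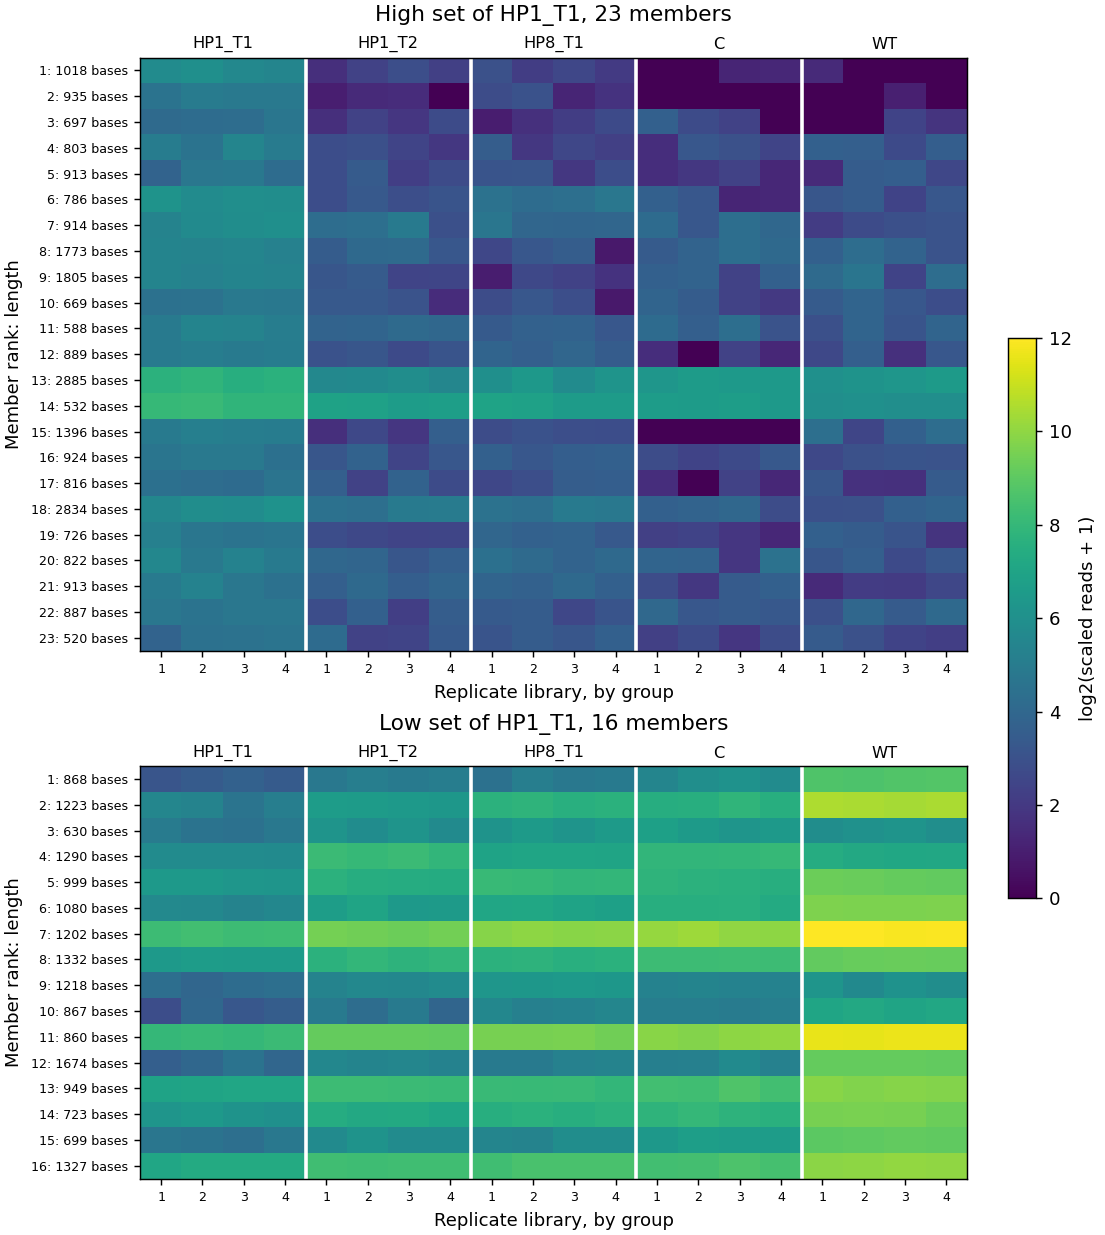
Colour gives log2(scaled reads + 1) of the 23 high-set and 16 low-set members (rows, ordered by the ratio that sets HP1_T1 apart and labelled by length) in the 20 libraries (columns, 4 per group). The HP1_T1 columns are brightest in the high set and darkest in the low set, where the WT columns are brightest for most rows.

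Nta#S33577189, of 1018 bases, had the largest ratio. Its scaled reads were 54.6, 62.1, 47.2 and 43.2 in HP1_T1, 2.04, 4.19, 6.41 and 3.82 in HP1_T2, and 6.79, 3.60, 4.89 and 3.11 in HP8_T1. They were 0, 0, 1.39 and 1.49 in C and 1.66, 0, 0 and 0 in WT. HP1_T1 did not overlap any group, HP1_T2 and HP8_T1 overlapped each other, and so did C and WT. The mean was 51.8 ± 8.35 scaled reads in HP1_T1, 4.11 ± 1.79 in HP1_T2, 4.596 ± 1.64 in HP8_T1, 0.720 ± 0.832 in C and 0.416 ± 0.832 in WT (SD, n = 4 each). These levels rest on 311, 18, 23, 2 and 1 reads in that order of groups.

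Among the other groups no test is given for Nta#S33577189, because it entered the fit through its HP1_T1 libraries alone. When the filter was run on the 16 libraries of the other groups, 16 of the 23 high members passed and 7 did not, this feature among them. Its pooled level in HP1_T2 was 13.4 times that in WT, which had 1 read (95% exact counting interval 2.11 to 557), and 5.42 times that in C, which had 2 reads (interval 1.30 to 48.2). In HP8_T1 these ratios were 14.3 (interval 2.33 to 591) and 5.81 (interval 1.44 to 50.9). The intervals cover counting error only, not the spread between libraries, and are not read as a test.

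Nta#S33561157, of 935 bases, was second. It had 22.9, 31.03, 28.2 and 27.9 scaled reads in HP1_T1, 1.02, 1.68, 1.83 and 0 in HP1_T2, and 5.82, 7.21, 1.40 and 2.33 in HP8_T1. No read was counted in C, and the WT libraries had 0, 0, 1.09 and 0. The 4 HP1_T1 libraries lay far above all others, and the lowest HP8_T1 library lay within the range of HP1_T2. Pooled reads were 168 in HP1_T1, 5 in HP1_T2, 21 in HP8_T1, 0 in C and 1 in WT.

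Nta#S33561157 likewise did not pass the filter on the other 16 libraries, so its levels there are a description. The pooled level in HP8_T1 was 13.1 times that in WT (95% exact counting interval 2.11 to 541). It was 3.54 times that in C, with C set at a floor of 3 reads over its 4 libraries, a ratio that is not a bound. In HP1_T2 the ratio to WT was 3.71 (interval 0.415 to 176), from 5 reads against 1. These intervals cover counting error only, not the spread between libraries, and are not read as a test.

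**Figure D2:**
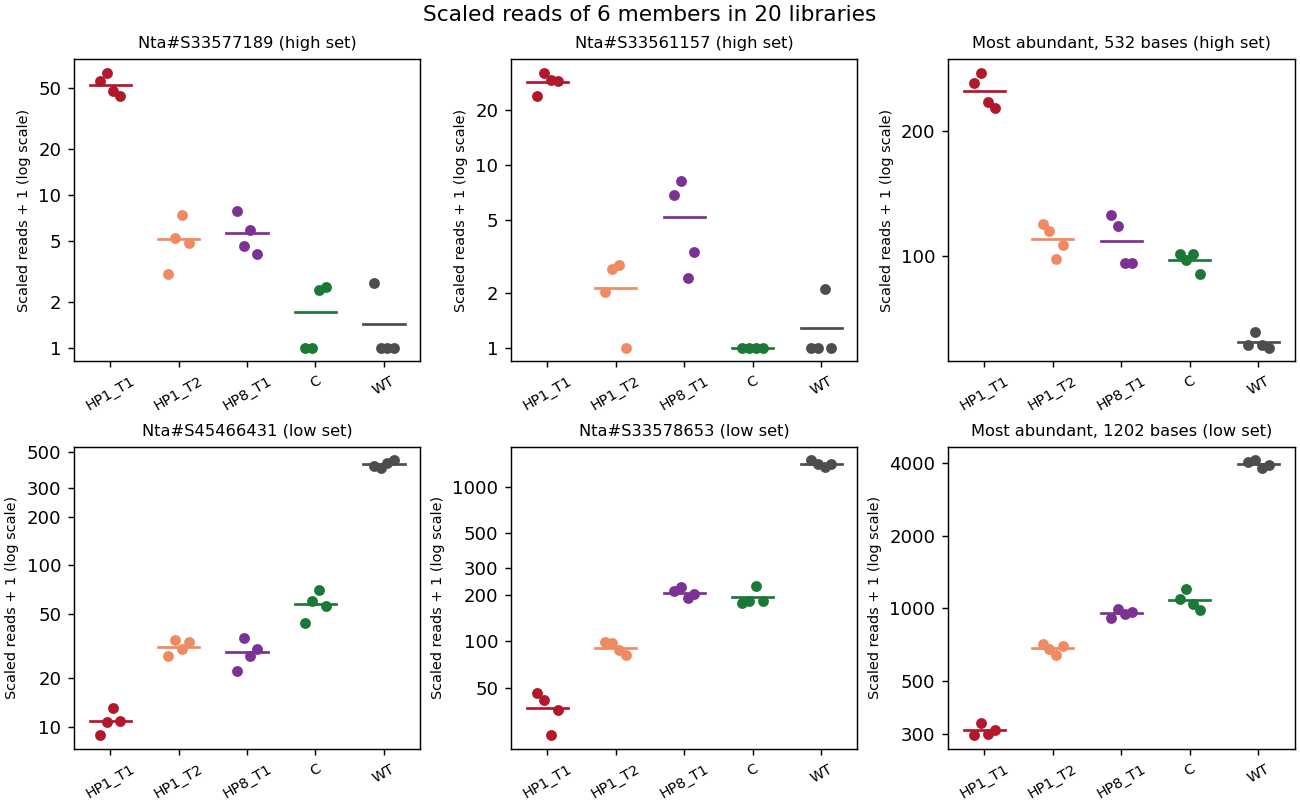
Scaled reads + 1 on a log axis for 6 members, with 1 point per library, a bar at the group mean and groups along the x axis. The upper row shows high-set members, with HP1_T1 above all other libraries, and the lower row shows low-set members, with HP1_T1 lowest and WT highest.

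The most abundant high-set member, of 532 bases, differed from the first 2 in being well expressed everywhere. Its scaled reads were 261, 276, 234 and 226 in HP1_T1, 118, 114.02, 97.0 and 105 in HP1_T2, and 124, 117, 94.97 and 94.8 in HP8_T1. They were 99.6, 96.5, 100.1 and 89.3 in C and 59.9, 64.5, 59.9 and 58.98 in WT. WT lay below all transgenic libraries, while the ranges of HP1_T2, HP8_T1 and C overlapped. Against WT the log2 difference was 0.64 in HP1_T2 (SE 0.13, adjusted p = 2.03e-05), 0.54 in HP8_T1 (SE 0.13, adjusted p = 0.000251) and 0.64 in C (SE 0.14, adjusted p = 0.000176), all by edgeR with the same WT libraries. Per 1000 bases its mean level in HP1_T1 was 468 scaled reads, the highest of the set, whose lowest was 20.3.

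The next most abundant member, of 2885 bases, had a different order among the other groups, with its means in HP1_T2 and HP8_T1 below those in C and WT. It had 206, 228, 184 and 199 scaled reads in HP1_T1, 47.9, 50.3, 58.6 and 43.9 in HP1_T2, and 62.0, 84.3, 55.2 and 73.1 in HP8_T1. C libraries had 78.2, 96.5, 87.6 and 86.3 and WT libraries 64.9, 70.2, 77.3 and 93.4. Its level was thus highest in HP1_T1 and lowest in the progeny of that group. It fell in HP1_T2 against WT (log2 difference −0.81, SE 0.15, edgeR adjusted p = 2.61e-06) and against C (−0.97, SE 0.15, edgeR adjusted p = 1.27e-07), and in HP8_T1 against WT (−0.44, SE 0.14, edgeR adjusted p = 0.00459). These directions depend on the scale. With library totals, HP1_T2 was higher than WT by 0.39 (SE 0.17, edgeR adjusted p = 0.0331) and HP8_T1 by 0.93 (SE 0.16, edgeR adjusted p = 1.83e-07), and HP1_T2 differed from C by 0.11 (SE 0.17, edgeR adjusted p = 0.565). With totals outside the most abundant feature, the difference from WT was −0.05 in HP1_T2 (SE 0.15, edgeR adjusted p = 0.788) and 0.33 in HP8_T1 (SE 0.14, edgeR adjusted p = 0.0276). Unique reads were 62.3% of its reads, so part of its count came from reads not counted as unique, which near-identical sequences may share.

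A 1396-base member had 29.96, 35.3, 32.8 and 31.9 scaled reads in HP1_T1, 2.04, 5.03, 2.75 and 11.45 in HP1_T2, and 5.82, 7.21, 6.28 and 6.22 in HP8_T1. It had no read in the 4 C libraries and 19.96, 4.604, 11.97 and 18.4 scaled reads in WT. With C set at 3 reads, its pooled level was 4.62 times that of C in HP1_T2, 5.56 times in HP8_T1 and 11.4 times in WT. These ratios take the reads of the other group as counted and are not bounds. It did not pass the filter on the other 16 libraries, so no test is given. A 786-base member stood higher in line 8 than in the remaining groups. Its mean was 60.5 ± 6.60 in HP1_T1, 7.35 ± 1.41 in HP1_T2, 21.4 ± 3.35 in HP8_T1, 5.81 ± 5.20 in C and 7.91 ± 2.54 in WT (scaled reads, SD, n = 4 each). It was higher in HP8_T1 than in WT (log2 difference 1.15, SE 0.31, edgeR adjusted p = 0.00117) and lower in HP1_T2 than in HP8_T1 (−1.42, SE 0.29, edgeR adjusted p = 3.95e-05).

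As a set, the high members followed no single order among the other 4 groups. An X of 20 was reached by 3 members in HP1_T2, 4 in HP8_T1, 2 in C and 2 in WT, and 7 of the 23 were in the fit through HP1_T1 alone. Except in the fit of the 16 libraries, the counts that follow include these 7. They therefore describe the members and are not read against the background shares printed beside them. Against WT, 5 rose and 4 fell in HP1_T2, where 27.9% of the 7126 features rose and 24.4% fell, and 35.1% and 28.0% of the 2189 features that had an X of at least 20 in HP1_T1. In HP8_T1 against WT, 7 rose and 7 fell, beside 29.4% and 25.2% of all features and 34.2% and 30.1% of the 2189. In C against WT, 2 rose and 4 fell, beside 19.6% and 21.0% of all features and 25.5% and 24.8% of the 2189. The fit of the 16 libraries of the other groups, an alternative chosen after seeing the data, held 16 of the 23 members. Of these, 4 rose and 1 fell in HP1_T2, 5 rose and 4 fell in HP8_T1, and 2 rose and 2 fell in C, against WT. Of the 6004 features in that fit, 1712 rose and 1570 fell in HP1_T2, and 1811 rose and 1599 fell in HP8_T1. In C, 1212 rose and 1363 fell. The 2834-base feature, which entered that fit too, was higher in HP8_T1 than in WT (log2 difference 1.02 with all libraries, SE 0.28, edgeR adjusted p = 0.00139). The counts with all 20 libraries turn with the scale: with library totals, 15 members rose and 0 fell in HP1_T2, and 16 rose and 1 fell in HP8_T1, against WT. On that scale most features rose: 4787 of all 7126 rose and 509 fell in HP1_T2, and 5245 rose and 465 fell in HP8_T1. The number of high members that fell in HP8_T1 was 4 without WT replicate 2. In C it was 1 without WT replicate 2 and 2 without C replicate 1, 2 or 4, and the number that rose in C was 1 without C replicate 3.

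Against C, 5 high members rose and 1 fell in HP1_T2, beside 17.3% and 16.1% of all features tested and 22.9% and 19.9% of the 2189. In HP8_T1, 8 rose and 3 fell, beside 21.8% and 19.5% of all features and 27.4% and 25.5% of the 2189. When HP1_T2 was set against HP8_T1, 2 members were higher and 4 were lower, beside 18.5% and 19.1% of all features and 24.1% and 21.8% of the 2189. The comparisons against WT share the WT libraries and those against C share the C libraries. With library totals, 16 members rose and 0 fell against C in HP1_T2, and likewise in HP8_T1. On that scale 4632 of all 7126 features rose and 210 fell in HP1_T2, and 5162 rose and 235 fell in HP8_T1. In the fit of 16 libraries, 3 of its 16 members rose and 1 fell in HP1_T2, and 5 rose and 2 fell in HP8_T1, against C. In HP1_T2 against HP8_T1, 1 was higher and 3 were lower. Of the 6004 features in that fit, 1068 rose and 1035 fell in HP1_T2, and 1360 rose and 1257 fell in HP8_T1, against C. In HP1_T2 against HP8_T1, 1117 were higher and 1165 lower. With all libraries but 1, the number of high members that rose in HP1_T2 against C was 2 without C replicate 2. It was 3 without C replicate 4 or HP1_T2 replicate 2 or 3. Between HP1_T2 and HP8_T1, the number higher was 0 without HP8_T1 replicate 4 and 1 without HP8_T1 replicate 1 or HP1_T2 replicate 1 or 2, and the number lower was 2 without HP1_T2 replicate 1 or 4 or HP8_T1 replicate 2. The highest of the other 4 groups was HP1_T2 for 5 members, HP8_T1 for 9, C for 3 and WT for 6. Among the 2189 tested features with an X of at least 20 in HP1_T1, HP8_T1 was the highest of the 4 in 36.5% and WT in 23.4%.

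**Figure D3:**
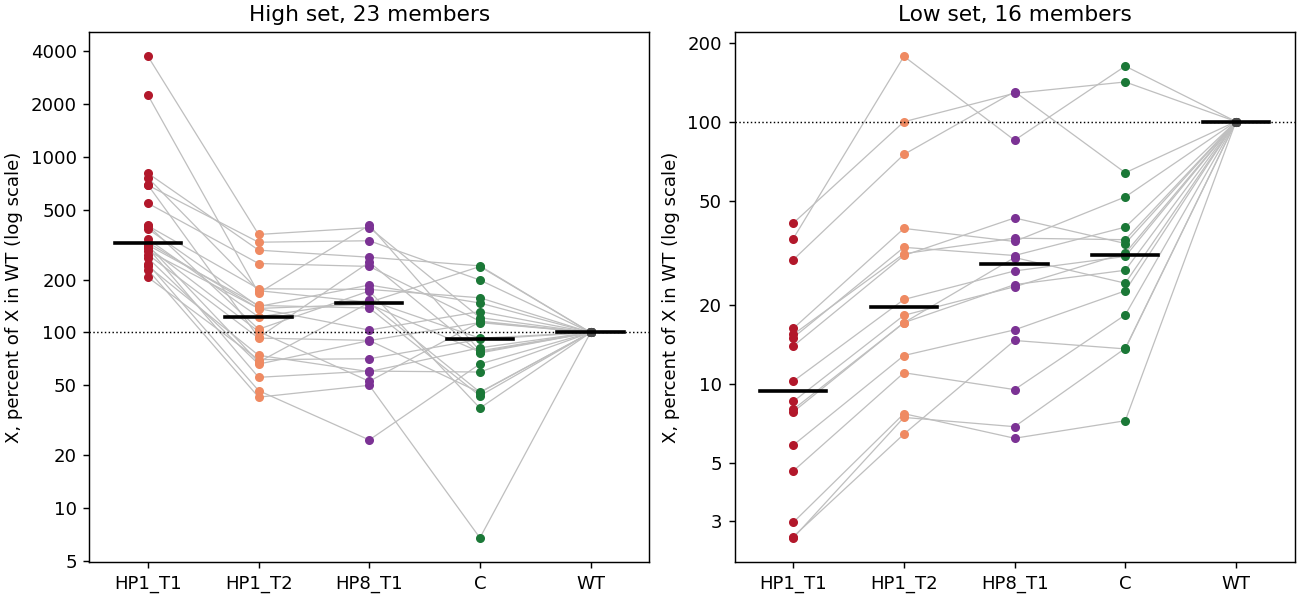
X of each member as a percent of its X in WT (log axis), by group, with 1 point per member, grey lines that join the same member across groups and black bars at the medians. High-set medians in HP1_T2, HP8_T1 and C lie at 123%, 148% and 91.3% of WT, while those of the low set lie at 19.6%, 28.6% and 31.1%.

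The low set was not a set of features lowered in HP1_T1 alone. Most of its members were abundant in WT, lower in empty-vector plants and in the other hairpin groups, and lowest in HP1_T1. Median X over the 16 members was 50.7 in HP1_T1, 127.8 in HP1_T2, 163 in HP8_T1, 197 in C and 588 in WT. As a percent of WT, the median member stood at 9.40% in HP1_T1, 19.6% in HP1_T2, 28.6% in HP8_T1 and 31.1% in C. Summed over the members, and scaled to RPM of the reads outside the most abundant feature, the level was 3736 ± 121.8 in HP1_T1, 7404 ± 255 in HP1_T2, 8375 ± 198 in HP8_T1, 11207 ± 192 in C and 23967 ± 507 in WT (SD, n = 4 each). The ratio of the lowest other group to HP1_T1 ranged from 2.03 to 2.65, with a median of 2.15, so all members were close to the threshold. In 15 of the 16, all HP1_T1 libraries lay below the other 16 libraries, against 1.84% of features tested, again the contrast of the rule.

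Nta#S45466431, of 868 bases, had the largest ratio in the low set. Its scaled reads were 7.93, 9.74, 12.1 and 9.96 in HP1_T1, 26.5, 33.5, 29.3 and 32.5 in HP1_T2, and 21.3, 34.6, 26.5 and 29.5 in HP8_T1. They were 43.0, 59.1, 69.5 and 55.0 in C and 411, 399, 429 and 445 in WT. HP1_T1 and WT stood at opposite ends without overlap, C lay above all hairpin libraries, and HP1_T2 and HP8_T1 overlapped. The mean was 9.93 ± 1.70 in HP1_T1, 30.4 ± 3.19 in HP1_T2, 28.0 ± 5.55 in HP8_T1, 56.7 ± 11.0 in C and 421 ± 19.97 in WT (SD, n = 4 each). Its log2 difference from WT was −3.97 in HP1_T2 (SE 0.12, edgeR adjusted p = 1.75e-50), −4.16 in HP8_T1 (SE 0.12, adjusted p = 3.9e-53) and −2.89 in C (SE 0.12, adjusted p = 5.89e-39). Its log2 difference from C was −1.08 in HP1_T2 (SE 0.17, edgeR adjusted p = 3.88e-07) and −1.28 in HP8_T1 (SE 0.17, edgeR adjusted p = 1.15e-09), and with library totals as the scale these became −0.00 and −0.02 (edgeR adjusted p = 0.991 and 0.922).

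Nta#S33578653, of 1223 bases, was second. It had 44.9, 40.8, 23.6 and 34.5 scaled reads in HP1_T1, 97.9, 95.6, 86.03 and 80.2 in HP1_T2, and 210.3, 223, 189 and 201 in HP8_T1. C libraries had 176, 180.03, 227 and 181 and WT libraries 1485, 1415, 1336 and 1408. Both generations of line 1 lay below all other libraries, and HP8_T1 overlapped C. The log2 difference from WT was −4.16 in HP1_T2 (SE 0.09, edgeR adjusted p = 1.25e-61), −3.05 in HP8_T1 (SE 0.08, adjusted p = 7.86e-55) and −2.90 in C (SE 0.09, adjusted p = 1.73e-49). HP1_T2 lay below C by −1.26 (SE 0.11, edgeR adjusted p = 3.51e-17) and below HP8_T1 by −1.11 (SE 0.10, edgeR adjusted p = 4.66e-16), and HP8_T1 differed from C by −0.16 (SE 0.10, edgeR adjusted p = 0.2). With library totals, HP8_T1 was higher than C by 1.09 (SE 0.12, edgeR adjusted p = 5.77e-13) and HP1_T2 differed from C by −0.19 (SE 0.14, edgeR adjusted p = 0.211).

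The most abundant low-set member, of 1202 bases, ranked 22 in mean X among all features. It had 296, 333, 300.3 and 312 scaled reads in HP1_T1, 709, 673, 641 and 698 in HP1_T2, and 907, 988, 945 and 958 in HP8_T1. C libraries had 1092, 1200, 1038 and 980.3 and WT libraries 4051, 4106, 3836 and 3913. On the scale of the rule the groups were ordered HP1_T1, HP1_T2, HP8_T1, C and WT, with an overlap between HP8_T1 and C alone. The place of C depends on the scale: with library totals, no low-set member was called lower in HP1_T2 or HP8_T1 than in C. Against WT its log2 difference was −2.74 in HP1_T2 (SE 0.07, edgeR adjusted p = 1.8e-58), −2.34 in HP8_T1 (SE 0.07, adjusted p = 6.31e-54) and −1.90 in C (SE 0.07, adjusted p = 1.1e-45).

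The low set was then followed in contrasts that leave out HP1_T1, and all 16 members also passed the filter on the other 16 libraries. For each of those groups the rule set 2 lower bounds, an X of 20 and 2 times the X of HP1_T1, but it did not set these groups against each other. Against WT, 14 of the 16 members fell in HP1_T2 and 1 rose, beside 24.4% and 27.9% of all features tested. In HP8_T1, 14 fell and none rose (0 at an unadjusted p under 0.05; 2 rose by DESeq2), beside 25.2% and 29.4%. In C, 14 fell and 2 rose, beside 21.0% and 19.6%. Of the 1092 tested features with an X of at least 20 in each of the 4 groups, which met the level bound but not necessarily the fold bound, 38.3% fell and 26.2% rose in HP1_T2, 41.7% fell and 24.3% rose in HP8_T1, and 32.7% fell and 20.8% rose in C. The members' median log2 difference from WT was −2.55 in HP1_T2, −2.10 in HP8_T1 and −1.71 in C, where those 1092 features had medians of −0.13, −0.19 and −0.08. The number that fell was 12 to 14 under each scaling, filter, test and read count tried, and 14 without any single library and in the fit of the 16 libraries of the other groups. The number that rose in C was 1 without C replicate 1 or WT replicate 4.

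Below C, 13 of the 16 members fell further in HP1_T2 and none rose (0 at an unadjusted p under 0.05; 0 by DESeq2), beside 16.1% and 17.3% of all features tested and 27.9% and 16.7% of the 1092. In HP8_T1 against C, 12 fell and 1 rose, beside 19.5% and 21.8% of all features and 34.9% and 21.8% of the 1092. The direction depends on the scale: with library totals, 10 members rose and 0 fell in HP1_T2, and 13 rose and 0 fell in HP8_T1. Beside them, 4632 of all 7126 features rose and 210 fell in HP1_T2, and 5162 rose and 235 fell in HP8_T1. That scale is set by the most abundant feature, and under it the median log2 difference of all features was 1.13 in HP1_T2 and 1.29 in HP8_T1 against C, where TMM gave 0.06 and 0.05. Against HP8_T1, 7 members were lower and 3 higher in HP1_T2, beside 19.1% and 18.5% of all features and 20.7% and 27.6% of the 1092. The number higher was 1 without HP1_T2 replicate 2.

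**Figure D4:**
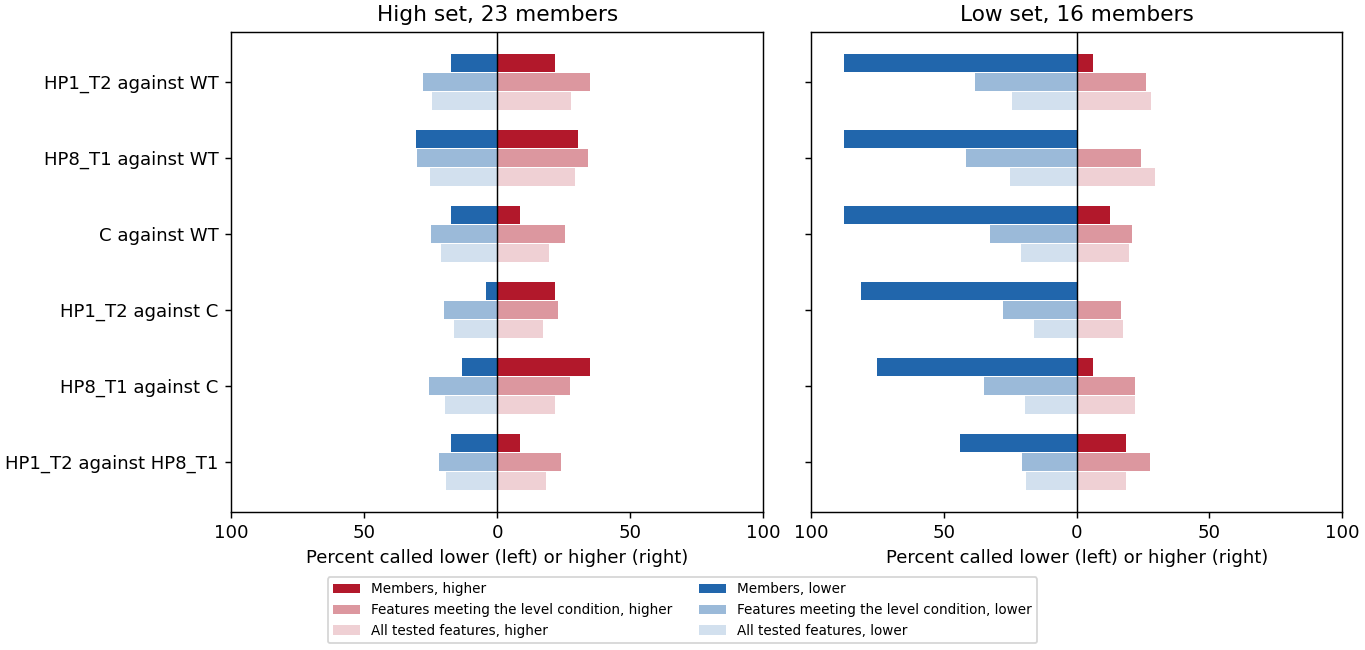
Percent of members called lower (bars to the left, blue) or higher (bars to the right, red) by edgeR in the 6 contrasts that leave out HP1_T1, with paler bars for tested features that meet the level condition of the set's rule and palest bars for all 7126 tested features. High-set bars lie on both sides of the paler ones and include 7 members that entered the fit through HP1_T1 alone, while 87.5% of low-set members were lower in each of the 3 comparisons against WT.

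Among the low-set members, 3 did not have WT as the highest of the other groups, and the other 13 did, against 31.2% of the 1092 features that met the level condition. The 1290-base member had 53.8, 54.2, 54.7 and 51.8 scaled reads in HP1_T1, 289, 265, 286 and 237 in HP1_T2, and 124, 130.4, 129.9 and 129.01 in HP8_T1. C libraries had 240.3, 238, 243 and 266 and WT libraries 169.6, 149.6, 140.4 and 146. Its mean was thus highest in the progeny, whose range overlapped that of C, with log2 differences of 0.65 in HP1_T2 (SE 0.09, edgeR adjusted p = 6.52e-09), −0.50 in HP8_T1 (SE 0.10, adjusted p = 1.17e-05) and 0.69 in C (SE 0.10, adjusted p = 9.73e-09) against WT. With library totals HP8_T1 was higher than WT by 0.87 (SE 0.13, edgeR adjusted p = 4.39e-09), and with totals outside the most abundant feature by 0.26 (SE 0.10, edgeR adjusted p = 0.0187). HP1_T2 exceeded HP8_T1 by 1.15 (SE 0.09, edgeR adjusted p = 6.32e-20) and differed from C by −0.05 (SE 0.09, edgeR adjusted p = 0.716).

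The 1218-base member had its highest level in line 8. Its scaled reads were 19.4, 14.6, 17.8 and 19.9 in HP1_T1, 39.8, 47.8, 45.8 and 53.5 in HP1_T2, 77.5, 81.4, 87.3 and 80.8 in HP8_T1, 39.1, 41.8, 38.9 and 38.7 in C, and 74.8, 50.6, 67.5 and 57.7 in WT. It was higher in HP8_T1 than in C (log2 difference 0.79, SE 0.16, edgeR adjusted p = 4.04e-05) and did not pass the test against WT (0.13, SE 0.14, edgeR adjusted p = 0.463), and it was lower in C than in WT (−0.66, SE 0.18, edgeR adjusted p = 0.00177). On the scale of totals outside the most abundant feature, HP8_T1 was higher than WT by 0.89 (SE 0.14, edgeR adjusted p = 3.4e-08) and C differed from WT by 0.01 (SE 0.18, edgeR adjusted p = 0.974). With library totals, HP8_T1 was higher than WT by 1.49 (SE 0.16, edgeR adjusted p = 8.63e-14). The 630-base member had means of 25.6 ± 4.28 in HP1_T1, 63.8 ± 10.6 in HP1_T2, 82.2 ± 11.4 in HP8_T1, 90.9 ± 15.2 in C and 63.9 ± 6.85 in WT (scaled reads, SD, n = 4 each). It rose in C against WT (0.45, SE 0.16, edgeR adjusted p = 0.0142), while its differences from WT were −0.21 in HP1_T2 (SE 0.15, edgeR adjusted p = 0.242) and 0.08 in HP8_T1 (SE 0.14, edgeR adjusted p = 0.665). With library totals the differences from WT became 0.98 in HP1_T2 (SE 0.17, edgeR adjusted p = 3.72e-07) and 1.45 in HP8_T1 (SE 0.16, edgeR adjusted p = 2.13e-13), and outside the most abundant feature 0.54 (SE 0.15, edgeR adjusted p = 0.00126) and 0.84 (SE 0.14, edgeR adjusted p = 2.14e-07).

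At the other end, the 1674-base member stood at 15.9 ± 4.64 scaled reads in HP1_T1, 42.9 ± 3.04 in HP1_T2, 34.4 ± 4.98 in HP8_T1, 40.3 ± 8.41 in C and 570 ± 10.8 in WT (SD, n = 4 each). The low level was shared by C, where it fell by 3.82 on the log2 scale against WT (SE 0.12, edgeR adjusted p = 8.23e-48). HP1_T2 differed from C by −0.10 (SE 0.18, edgeR adjusted p = 0.709), and with library totals by 0.98 (SE 0.20, edgeR adjusted p = 2.06e-05).

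Abundance is in part set by the rule, while length and the share of unique reads were not used in it, and neither is tested here. Abundance ranks in mean X ran from 244 to 5990 in the high set, with a median of 3268. In the low set they ran from 22 to 664, with a median of 113.5. The low set's level condition applies to 4 groups and by itself favours abundant features. Features that met the level conditions had a median rank of 1159 for the high set and 602.5 for the low set. Median length was 889 bases in the high set (520 to 2885) and 1040 bases in the low set (630 to 1674), against 888 bases over the 7126 features tested. Features that met the level conditions had median lengths of 909 and 918 bases. Fewer than 90% of reads were unique in 7 of the 23 high members and 4 of the 16 low members, against 677 of the 7126 features tested, and against 15.03% and 15.4% of those that met the level conditions of the high and the low set. The lowest unique shares were 55.6% in the high set and 54.7% in the low set. For these features the counting may have split reads between near-identical copies, which tobacco, an allotetraploid with gene copies from 2 parental genomes, often carries. With unique reads alone, 22 of the 23 and 14 of the 16 members still passed the rule.

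Membership itself rested on narrow margins and on the scale. The high-set member nearest the fold threshold had a ratio of 2.01 (X of 21.1 in HP1_T1 and 10.47 in HP8_T1), and the nearest feature outside had 1.98 (X of 24.9 in HP1_T1 and 12.5 in HP1_T2). In the low set these ratios were 2.03 (X of 156 in HP1_T1 and 316 in HP1_T2) and 1.997 (X of 31.7 in HP1_T1 and 63.2 in HP1_T2). Ratios from 1.8 up to the threshold were found for 19 further features on the high side and 13 on the low side. When each of the 20 libraries was left out in turn, the high set held 21 to 26 features and the low set 14 to 19, and 13 and 11 members passed in all 20 runs. The 520-base high member passed in 13 of them.

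With TMM scaling, 16 of the 23 high members passed and the low set grew to 23, which held all 16 members. On a scale set by the reads of all but the most abundant feature, 106 features were high and 3 low, and library totals gave 209 high and 2 low. All 23 high members were among these, but only 2 of the 16 low members were. Over the 7126 features, the median log2 level of HP1_T1 minus the mean of the other groups was 0.23 on the scale of the rule, 0.10 with TMM, 0.57 with reads outside that feature and 0.91 with library totals. The high set was larger and the low set smaller on the scales with the larger shift.

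**Figure D5:**
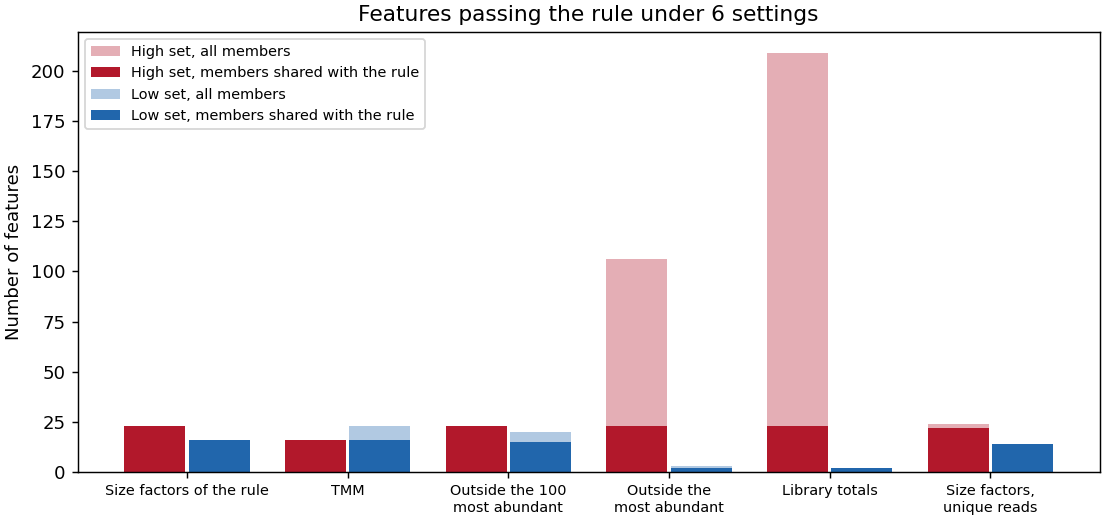
Number of features that pass the rule for the high set (red) and the low set (blue) under 6 settings, with dark parts for members shared with the rule as given. The high set grows to 106 and 209 features when the scale is set by totals outside the most abundant feature and by library totals, where the low set holds 3 and 2.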

How the data were processed

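Leaf RNA of 20 libraries in 5 groups of 4 was analysed. Per the labels' protocols, RNA was extracted with lithium chloride and libraries were made with the SOLiD total RNA kit. The authors deposited total and unique gene read counts per UniGene feature with feature lengths, per the file headers, in 2 tables whose WT columns were identical. No aligner, counter or build is named in those sources. Size factors were median ratios over the 1134 features with at least 10 reads in every library. Contrasts without HP1_T1 were tested with edgeR 4.0.16 in R 4.3.3 in 1 fit of all 20 libraries (TMM, filterByExpr with a minimum count of 10, 7126 features, quasi-likelihood F test, Benjamini-Hochberg adjusted p of 0.05 over all features). DESeq2 1.42.0, other scalings, no filter, unique reads, a replicate block and leaving out each library were alternatives. A filter and fit on the 16 libraries without HP1_T1 was added after seeing the data. Members that passed the filter through HP1_T1 alone were given no test of their own in the report. The counts of high members called include them, except in the fit of the 16 libraries. The standard error is the log2 difference divided by the square root of F. The common biological coefficient of variation was 8.91%. Folds against 0 reads set that group at 3 reads over its 4 libraries and take the reads of the other group as counted, so they are not bounds. The exact intervals cover counting error only.

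Members, lists and tests were chosen with earlier results of these data known, and the features that meet the level conditions were counted after seeing the data. The rule for named features took the 2 members of each set with the largest ratio and described the most abundant and the threshold members without identifier; the other members given by length were chosen after their values were seen. The identifiers matched no name, so lists of functions or cell type markers could not be applied.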

Additional observations from a re-analysis of the deposited data

Results flagged for a closer look

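Among the 4 named members and the most abundant member of each set, 4 of 30 groups of 4 libraries had a library far from the others by Dixon's criterion. Over all 39 members it was 16 of 195 groups. For normally spread values chance alone gives about 1 in 20, a rate that does not hold for very low counts, where a single read beside 0 always meets the criterion. The 30 include the C group of Nta#S33561157, which had no read and could not be flagged. Nta#S33577189 had 1.66 scaled reads in WT replicate 1 and 0 in the other WT libraries, and Nta#S33561157 had 1.09 in WT replicate 3 and 0 in the others, so each value is 1 read. Nta#S33578653 had 227 scaled reads in C replicate 3, against 176 to 181 in the other C libraries. The most abundant high-set member had 64.5 in WT replicate 2, against 58.98 to 59.9 in the other WT libraries.

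The distance from C was set side by side in the other hairpin groups for 2 named members. HP1_T2 minus HP8_T1 was −1.64 on the log2 scale for Nta#S33561157, from 5 reads in HP1_T2 against 21 in HP8_T1, and C had no read. This feature entered the fit through HP1_T1 alone, and its listing here rests on that fit. Its value is therefore a description, and no difference between the groups is concluded from it. For Nta#S33578653, HP1_T2 minus HP8_T1 was −1.11 (SE 0.10, edgeR adjusted p = 4.66e-16). These groups differ in both line and generation, which cannot be told apart here.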

How the results depend on the processing

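Set sizes moved with thresholds and scale, from 23 high and 16 low members. There were 68 high and 33 low features at a level of 10, 8 high at 40, 112 high and 71 low at 1.5 times, and 4 high and 0 low at 3 times. Totals outside the most abundant feature gave 106 high and 3 low, and library totals 209 high and 2 low.

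Counts of high members called, higher then lower, were as follows. With library totals they were 15 and 0 in HP1_T2 and 16 and 1 in HP8_T1 against WT, with 2 lower in C against WT. Against C they were 16 and 0 in both HP1_T2 and HP8_T1. Over all 7126 features, library totals gave 4787 and 509 in HP1_T2 and 5245 and 465 in HP8_T1 against WT. Against C they gave 4632 and 210, and 5162 and 235. With totals outside the most abundant feature, member counts were 10 and 0 in HP1_T2, 14 and 1 in HP8_T1 and 9 and 1 in C against WT. Over all features that scale gave 3831 and 813, 4006 and 863, and 2959 and 651. Outside the 100 most abundant features, 3 were lower in HP8_T1, and 4 were higher and 1 lower in C, against WT. DESeq2 size factors, no filter and DESeq2's Wald test each gave 3 lower in HP8_T1 against WT, and the last 2 gave 2 lower in C against WT. In HP1_T2 against HP8_T1, 1 was higher with DESeq2 size factors, library totals, no filter, DESeq2's test or unique reads. In the fit of 16 libraries without HP1_T1, chosen after seeing the data, 1 was lower in HP1_T2, 4 in HP8_T1 and 2 in C against WT, 3 were higher in HP1_T2 and 5 in HP8_T1 against C, and 1 was higher in HP1_T2 against HP8_T1, where 16 of the 23 members were in the fit.

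Among low members, those higher in HP1_T2 against WT numbered 3 with library totals and 2 outside the most abundant feature. In HP8_T1 against WT, 3 were higher on both of these scales and 2 with totals outside the 100 most abundant features, DESeq2 size factors or DESeq2's test. Against C, library totals gave 10 higher and 0 lower in HP1_T2 and 13 and 0 in HP8_T1, and 2 were higher in HP8_T1 with DESeq2 size factors, no filter or DESeq2's test. In HP1_T2 against HP8_T1, 1 was higher with DESeq2 size factors, library totals, no filter or DESeq2's test, and 5 outside the 100 most abundant features. The cause of these moves was not tested beyond the scale shifts: over the scalings, 53.3% to 90.4% of all calls were rises in HP1_T2 against WT, 53.8% to 91.9% in HP8_T1 against WT and 48.3% to 82.0% in C against WT, 51.8% to 95.7% in HP1_T2 and 52.9% to 95.6% in HP8_T1 against C, and 33.2% to 51.8% in HP1_T2 against HP8_T1. The medians of all features reached 1.4986 with library totals (HP8_T1 against WT).

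Leaving out single libraries gave 4 to 7 high members lower in HP8_T1 against WT, 1 to 3 higher and 1 to 4 lower in C against WT, 2 to 5 higher in HP1_T2 against C, and 0 to 2 higher and 2 to 4 lower in HP1_T2 against HP8_T1. For low members it gave 1 to 2 higher in C against WT and 1 to 4 higher in HP1_T2 against HP8_T1. The other counts stayed within 1.5 times. Without a filter, 20394 features were tested in place of 7126, and C against WT had 2566 higher and 2711 lower calls over all features, against 1398 and 1495.

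Replicate numbers are shared between groups. Deviations of same-numbered libraries correlated at −0.00 to 0.04 over 40 pairs, none above 0.1, with a median of 0.018. Over the 120 pairs with different numbers the median was −0.005. Of 20 libraries, 13 were closest to their own number, more than an even spread over 4 numbers would give. The numbers may thus carry a weak shared effect. They were not taken as pairs because the correlations were small, and a replicate block was fitted as an alternative. With a replicate block, 14 low members were still lower in C against WT, and in HP1_T2 against HP8_T1 4 were higher and 8 lower, against 3 and 7 without it.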
